A study of Mus musculus with 12 samples.

Results

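Insulin-like growth factor 1 and the proteins that carry it in blood were described by 9 genes, Igf1, Igfals and Igfbp1 to Igfbp7, in bulk RNA-seq of 12 mouse livers. The members were the rows whose Ensembl identifier carries one of these names in GENCODE vM1, and all 9 had a row among the 51609 gene rows. All 9 also passed the filter on low counts, which kept 17652 genes. The study asked how hepatic gene expression responds to colitis and whether hepatocyte Rela and Stat3 take part in it. Livers came from 4 groups of 3 mice: wild-type mice given water, wild-type mice given 2% dextran sodium sulfate (DSS, a polymer that injures the colon epithelium) in the water for 6 days, and RelaΔhepStat3Δhep mice under the same 2 conditions. All mice were on a C57BL/6 background and aged 5 to 7 weeks. By the study's methods, the knockouts carry Cre under the albumin promoter and the wild-type mice are Cre-negative littermates with floxed alleles, and both sexes were used. The labels do not give the sex of each mouse.

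Hepatocytes are the main source of circulating insulin-like growth factor 1 (Igf1), which they make in response to pituitary growth hormone acting through its receptor (Ghr) and the transcription factor STAT5B. In blood most of the factor sits in a ternary complex with a binding protein, chiefly that of Igfbp3, and the acid-labile subunit encoded by Igfals, which prolongs its life in the circulation. The smaller binding protein of Igfbp1 forms binary complexes, is repressed by insulin and is induced in liver by fasting, stress and inflammatory cytokines. The other binding proteins differ in affinity and in the cells that make them, and several are cut by proteases such as the pappalysin of Pappa, which acts on the product of Igfbp4.

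The members lay at 7 loci, in mm9 coordinates of GENCODE vM1. Igf1 spans chr10:87321010-87399792 (+) and Igfals spans chr17:25014600-25018955 (+). Igfbp1, at chr11:7097785-7102549 (+), and Igfbp3, at chr11:7106089-7113926 (-), are neighbours that face each other tail to tail across 3539 bases with no annotated gene between them. Igfbp2, at chr1:72871077-72899048 (+), and Igfbp5, at chr1:72904506-72921458 (-), have the same arrangement across 5457 bases. Igfbp4 lies at chr11:98902558-98913969 (+), Igfbp6 at chr15:101974793-101979942 (+) and Igfbp7 at chr5:77778265-77837070 (-). All 9 are annotated as protein coding. Neighbours differed widely in level: Igfbp1 ran between 24.8 and 476 normalized counts per kb of exon over the 12 libraries, and Igfbp3 between 3.31 and 10.4.

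RefSeq (GRCm38.p6) held 12 promoter windows for the 9 genes, each with 250 bases before and 50 after an annotated start. They were searched on both strands for TTCNNNGAA, the letters bound by STAT factors, and for CAAAACA, the letters of the FoxO-bound insulin response element. TTCNNNGAA, which reads the same on both strands, was present in 8.3% of all 32851 RefSeq promoter windows. Among the members it was found in 2 of the 3 Igfals windows and in no other. CAAAACA was present in 6.28% of all windows and, among the members, only in that of Igfbp1. The matches did not overlap each other, and a match of letters is not evidence of binding. The 3 windows with a match are shown without the bases after the start, because they are the members with a match and both carry results described below. Capitals mark the match, whose first base is 236 bases before the first Igfals start, 58 before the second and 108 before the Igfbp1 start.
Igfals, first start, chr17:24877594-24877843 (+): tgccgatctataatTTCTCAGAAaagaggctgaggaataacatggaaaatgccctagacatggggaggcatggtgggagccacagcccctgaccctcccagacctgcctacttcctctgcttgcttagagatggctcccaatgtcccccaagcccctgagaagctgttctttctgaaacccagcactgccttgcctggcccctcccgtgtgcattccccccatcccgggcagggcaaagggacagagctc
Igfals, second start, chr17:24877981-24878230 (+): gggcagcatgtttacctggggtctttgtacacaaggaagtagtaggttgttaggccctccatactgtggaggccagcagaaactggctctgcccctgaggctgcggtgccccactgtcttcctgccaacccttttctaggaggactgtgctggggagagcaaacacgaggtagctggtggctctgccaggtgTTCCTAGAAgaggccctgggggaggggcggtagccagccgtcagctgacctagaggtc
Igfbp1, chr11:7197537-7197786 (+): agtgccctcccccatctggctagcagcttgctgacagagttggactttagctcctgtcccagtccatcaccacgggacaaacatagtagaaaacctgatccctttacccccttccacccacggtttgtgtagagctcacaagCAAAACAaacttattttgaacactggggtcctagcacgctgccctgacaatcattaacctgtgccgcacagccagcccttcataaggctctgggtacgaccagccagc

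Values are given as normalized read counts, that is counts per 1e+06 library counts (CPM) scaled by TMM, and log2 fold changes as edgeR quasi-likelihood estimates with their standard error (SE). Adjusted p-values are Benjamini-Hochberg values over all 17652 genes, and a gene was called at an adjusted p under 0.05. Library totals ran from 65879529 to 82850098 counts. In these whole-liver samples, fewer cells of a type and less RNA per cell cannot be told apart.

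Several libraries stood apart in ways that bear on these groups. The X-inactivation transcript Xist was at 1283, 903 and 919 CPM in the DSS-treated livers labelled RelaΔhepStat3Δhep and at most 29.0 CPM in the untreated ones. It was at 0.566, 0.191 and 1143 CPM in the untreated wild-type livers and at most 11.9 CPM in the DSS-treated ones. The Y-linked Ddx3y was at most 0.0838 CPM in the DSS-treated livers labelled RelaΔhepStat3Δhep, at 14.3 CPM in the third untreated wild-type liver and at 89.4 CPM or more in every other library. In the labelled knockouts, DSS and the sex-linked transcripts therefore cannot be told apart, and the same holds for the comparison of genotypes under DSS and for the interaction. All 11 tested genes of a list with female-biased expression in liver had positive DSS fold changes in the labelled knockouts, with a median log2 of 3.76, against -0.01 over all genes, and 2 were called. In wild-type livers 10 of the 11 had negative DSS fold changes and none was called, with a median log2 of -3.80, against 0.02 over all genes. Of 7 tested genes with male-biased expression, all had negative DSS fold changes in the labelled knockouts, with a median log2 of -2.36 and 4 called lower, and 5 were positive in wild-type livers with none called. Over all genes, 7.02% were called with DSS in the labelled knockouts and 0.685% in wild-type livers. The female-biased list summed to 458, 572 and 5050 CPM in untreated wild-type livers and to 328, 484 and 126 CPM after DSS. Growth hormone secretion differs between the sexes, so these values stand beside the results on Igf1 and Igfals in both genotypes, and their part in them was not tested. The second DSS-treated wild-type liver had the acute-phase transcript Lcn2 at 5730 CPM, against 14.2 and 196 CPM in the other 2 of its group. It also had the neutrophil transcript S100a8 at 38.2 CPM, against 1.86 and 0.843 CPM, and the lowest TMM factor of the 12, 0.758. This liver carried the highest Igfbp1 and the lowest Igfbp2 given below, and the part of these differences in them was not tested. Rela was at 39.5 to 62.3 CPM in the livers labelled RelaΔhepStat3Δhep and at 39.8 to 55.5 CPM in the wild-type livers, so its level did not separate the genotypes. Stat3 was at 43.0 to 74.8 CPM in the labelled knockouts and at 45.7 to 330 CPM in wild-type livers. A count over the whole gene does not read out the deleted exons, and it checks the genotype labels no further than that. The 9 tested hepatocyte markers summed to 103137 to 187809 CPM in the 12 libraries.

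Divided by exon length, the binding protein of Igfbp4 had the highest transcript level of the 9 members and that of Igfbp6 the lowest. The median over 12 libraries was 484 CPM per kb for Igfbp4 (range 329 to 698), 251 for Igfbp2 (46.3 to 489) and 109 for Igf1 (78.2 to 138). It was 74.9 CPM per kb for Igfbp1 (24.8 to 476), 40.6 for Igfals (22.0 to 67.7) and 32.1 for Igfbp7 (18.5 to 39.0). The other 3 were lower, at 5.39 CPM per kb for Igfbp3 (3.31 to 10.4), 1.55 for Igfbp5 (1.06 to 4.5) and 0.746 for Igfbp6 (0.149 to 1.91). Neighbours in this order overlapped in range in every case but Igfbp7 and Igfbp3. Igf1 was the steadiest, with a highest library 1.76 times its lowest, and Igfbp1 the most variable, at 19.2 times. Igfbp6 rested on 11 to 177 counts per library, so its fold between libraries of 12.8 carries the largest counting error.

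**Figure D1:**
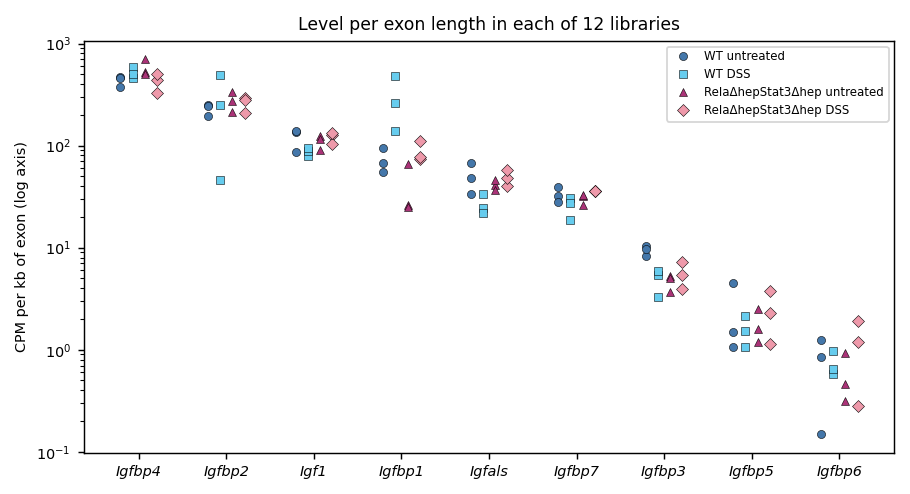
CPM per kb of exon (log axis) of the 9 members in each of the 12 libraries, ordered by their median; symbols and colours mark the 4 groups. Igfbp4 lies highest at a median of 484 and Igfbp6 lowest at 0.746, and Igfbp1 and Igfbp2 spread most among the abundant members.

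In wild-type livers, DSS was accompanied by more Igfbp1 transcript in every mouse, while Igfals, Igf1 and Igfbp3 had lower means. None of the 9 members was called by edgeR in this comparison, in which 0.685% of all genes were called. At an unadjusted p under 0.05 there were 3 of 9 members, against 14.5% of all genes. The groups did not overlap for 2 of 9, Igfbp1 and Igfbp3, against 18.7% of all genes. DESeq2, the tool named in the study's methods, called 3 of 9, against 5.61% of all genes, and limma-voom called 0. The median log2 fold change of the 9 was -0.37, against 0.02 over all genes, with 3 members above 0 and 6 below.

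Igfbp1 was at 83.6, 145 and 102 CPM in untreated wild-type livers and at 398, 726 and 212 CPM after DSS. The lowest DSS-treated liver was above the highest untreated one, and the DSS-treated livers differed more among themselves than the untreated ones did. The log2 fold change was 2.02 (SE 0.49, 95% interval 0.94 to 3.09, edgeR adjusted p = 0.0896), a 4.04-fold ratio. DESeq2 gave 2.01 with an adjusted p of 0.00773. Without the second DSS-treated liver, which had the highest Igfbp1 and the high Lcn2, the edgeR value was 1.47 (adjusted p = 0.187). Without the third DSS-treated liver it was 2.35 (adjusted p = 0.0407), and without the second untreated labelled knockout, which enters through the shared spread, 2.01 (adjusted p = 0.0495). A block for the replicate number gave 1.90 by edgeR (adjusted p = 0.0118), though the numbers do not pair the samples, as given below.

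Igfals, the acid-labile subunit, was at 96.5, 196 and 138 CPM in untreated wild-type livers and at 71.5, 63.7 and 96.7 CPM after DSS. The groups met at their edges, where the lowest untreated liver and the highest DSS-treated liver had nearly the same value. The log2 fold change was -0.89 (SE 0.24, 95% interval -1.41 to -0.37, edgeR adjusted p = 0.108), and DESeq2 gave -0.90 with an adjusted p of 0.0129. Igf1 was at 863, 1336 and 1367 CPM untreated and at 776, 883 and 943 CPM after DSS. Its first untreated liver lay within the DSS-treated range, and the log2 fold change was -0.45 (SE 0.21, 95% interval -0.92 to 0.01, edgeR adjusted p = 0.349). Without the third untreated liver, the one with Xist, the values were -0.34 for Igf1 (edgeR adjusted p = 0.605) and -0.92 for Igfals (adjusted p = 0.214).

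Igfbp3, the binding protein of the ternary complex, was at 32.6, 26.1 and 30.0 CPM in untreated wild-type livers and at 10.4, 16.8 and 18.6 CPM after DSS. Every DSS-treated liver was below every untreated one. The log2 fold change was -0.95 (SE 0.24, 95% interval -1.48 to -0.42, edgeR adjusted p = 0.0930), and DESeq2 gave -0.96 with an adjusted p of 0.00930. Liver Igfbp3 is made mostly by non-parenchymal cells. The 9 tested sinusoidal endothelial markers summed to 499 to 558 CPM in untreated wild-type livers and to 285 to 637 CPM after DSS, and the 10 fibroblast and smooth muscle markers to 107 to 184 and 36.3 to 108 CPM. Of these 10 markers, 9 had negative fold changes and none was called. Negative too were 7 of 9 endothelial (median log2 -0.22), 8 of 9 lymphocyte (-0.98) and 5 of 8 stellate cell markers (-0.11). Kupffer cell markers went the other way, with 8 of 9 positive (0.64), as did 7 of 7 monocyte and neutrophil markers (2.89). Cholangiocyte markers were divided, with 3 of 6 positive. None of these was called, and the part of these lists in the Igfbp3 values was not tested.

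**Figure D2:**
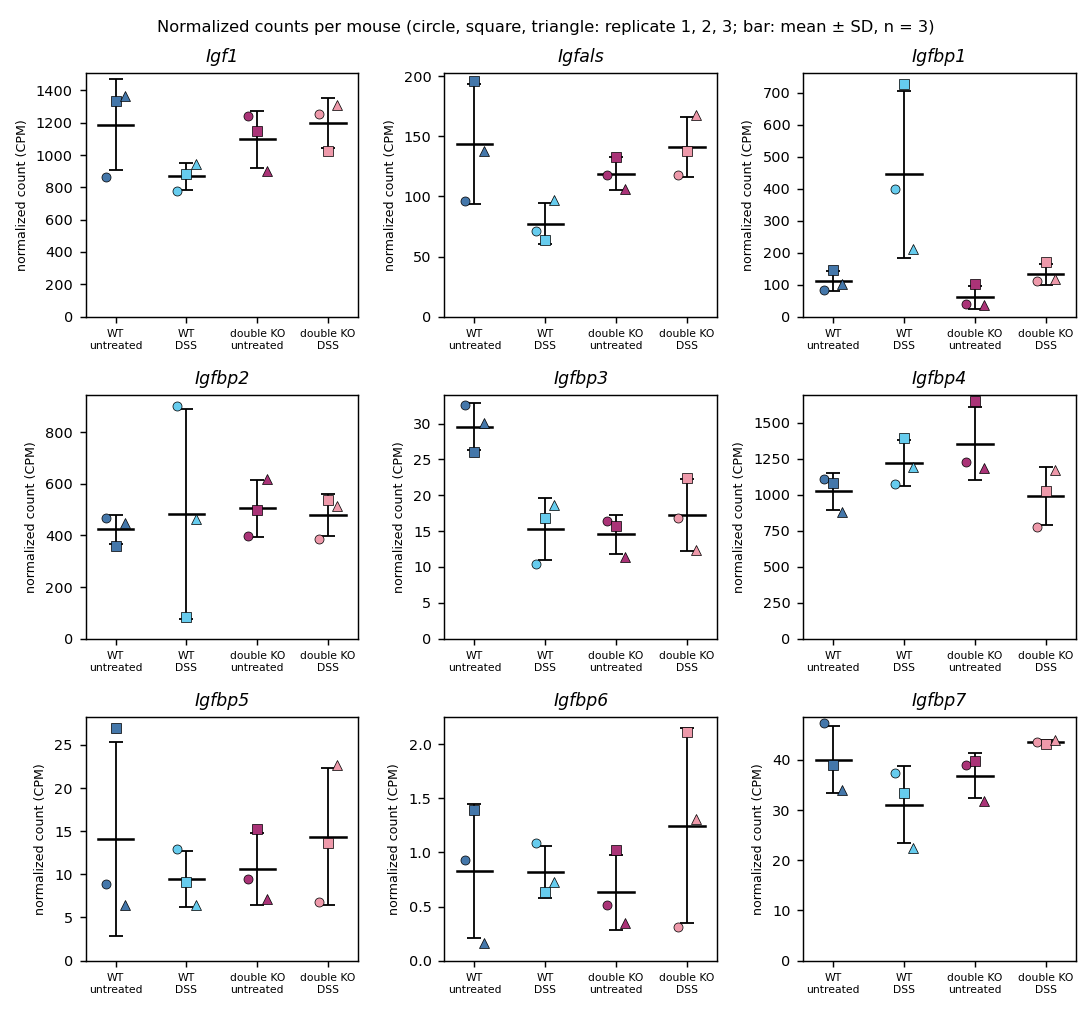
Normalized counts (CPM, linear axes from 0) of each member in every mouse by group, where circle, square and triangle are replicates 1, 2 and 3 and bars give mean ± SD (n = 3). Igfbp1 is highest in DSS-treated wild-type livers, at 212 to 726 CPM, and Igfbp3 is highest in untreated wild-type livers, at 26.1 to 32.6 CPM.

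None of the remaining binding proteins reached an unadjusted p under 0.05 in this comparison. Igfbp2, which like Igfbp1 increases in liver on fasting, was at 466, 359 and 447 CPM untreated and at 903, 85.5 and 462 CPM after DSS. The DSS-treated livers thus held both the highest and the lowest Igfbp2 of all 12 libraries, and the lowest was the liver with the highest Igfbp1. The log2 fold change was 0.19 (SE 0.58, edgeR adjusted p = 0.925), and it was 0.69 without the second DSS-treated liver and -0.63 without the first. Igfbp4 was at 1109.5, 1080 and 878 CPM untreated and at 1077, 1393 and 1190 CPM after DSS, with a log2 fold change of 0.25 (SE 0.21, edgeR adjusted p = 0.630). Igfbp7, whose product binds the growth factor only weakly and is abundant in vessel walls, was at 47.3, 38.9 and 34.0 CPM and at 37.5, 33.3 and 22.5 CPM, with a log2 fold change of -0.37 (SE 0.18, edgeR adjusted p = 0.383). For Igfbp4 and Igfbp7 the group means differed by more than either SD, though the groups overlapped. Without the third DSS-treated liver Igfbp7 was at -0.18, and without the second Igfbp4 was at 0.14. Igfbp5 ran from 6.44 to 27.0 CPM untreated and from 6.39 to 12.9 CPM after DSS. Igfbp6, which prefers the second growth factor of the family, ran from 0.166 to 1.39 CPM and from 0.637 to 1.09 CPM. The log2 fold changes were -0.58 (95% interval -1.88 to 0.72) for Igfbp5 and -0.03 (95% interval -1.59 to 1.54) for Igfbp6, intervals too wide to place either gene.

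In the livers labelled RelaΔhepStat3Δhep, the share of members that differed with DSS was near or below that of all genes. None of the 9 was called by edgeR, DESeq2 or limma-voom, in a comparison where edgeR called 7.02% and DESeq2 13.9% of all genes. At an unadjusted p under 0.05 there was 1 of 9, against 24.1% of all genes, and groups did not overlap for 3 of 9, against 31.8%. The median log2 fold change was 0.24, against -0.01 over all genes, with 7 members above 0 and 2 below.

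Igfbp1 was at 40.1, 102 and 37.9 CPM in untreated livers labelled RelaΔhepStat3Δhep and at 112, 170 and 117 CPM after DSS. The groups did not overlap, though the second untreated liver came near the lowest DSS-treated one. The log2 fold change was 1.15 (SE 0.48, 95% interval 0.10 to 2.2, edgeR adjusted p = 0.169), and 1.77 without that second untreated liver (adjusted p = 0.0751). With the replicate block edgeR called it, at 1.28 (adjusted p = 0.0172). Igfbp4 was at 1231, 1648 and 1189 CPM untreated and at 777, 1026 and 1175 CPM after DSS, again without overlap, at -0.45 (SE 0.21, edgeR adjusted p = 0.210), and -0.28 without the second untreated liver. Igfbp7 was at 39.0, 39.8 and 31.8 CPM untreated and at 43.7, 43.2 and 44.0 CPM after DSS. All 3 DSS-treated livers were above the untreated ones by a small margin, at 0.24 (SE 0.18, edgeR adjusted p = 0.450), and 0.15 without the third untreated liver.

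Igf1 was at 1242, 1148 and 900 CPM in the untreated livers labelled RelaΔhepStat3Δhep and at 1257, 1023 and 1312 CPM after DSS. Igfals was at 118, 133 and 106 CPM untreated and at 118, 138 and 168 CPM after DSS. Both overlapped between groups, with log2 fold changes of 0.13 (SE 0.21, 95% interval -0.33 to 0.59, edgeR adjusted p = 0.765) and 0.24 (SE 0.24, 95% interval -0.27 to 0.76, edgeR adjusted p = 0.579). Leaving out single livers moved Igf1 between 0.0023 and 0.23 and Igfals between 0.10 and 0.35. Igfbp3 was at 16.4, 15.8 and 11.4 CPM and at 16.9, 22.4 and 12.3 CPM, at 0.24 (SE 0.24, edgeR adjusted p = 0.589), with values between 0.0088 and 0.44 when single livers were left out. Igfbp2 was at 398, 500 and 620 CPM and at 386, 537 and 514 CPM, and the wide spread seen in DSS-treated wild-type livers was not present here. Igfbp5 ran from 7.13 to 15.2 CPM and from 6.78 to 22.7 CPM, and Igfbp6 from 0.351 to 1.02 CPM and from 0.314 to 2.12 CPM. Kupffer cell markers, 8 of 9 tested, were called higher in this comparison, and their sum ran from 401 to 442 CPM untreated and from 775 to 1202 CPM after DSS. The stellate cell markers, 8 tested, summed to 385 to 445 and 477 to 589 CPM, and their part in the Igfbp7 values was not tested.

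Between the genotypes without DSS, Igfbp3 was the member that differed most beyond its spread. Its 32.6, 26.1 and 30.0 CPM in wild-type livers stood above the 16.4, 15.8 and 11.4 CPM in the livers labelled RelaΔhepStat3Δhep, at -1.02 (SE 0.25, 95% interval -1.55 to -0.49, edgeR adjusted p = 0.142). DESeq2 gave -1.01 with an adjusted p of 0.0115. Without the third untreated wild-type liver the edgeR value was -1.01 (adjusted p = 0.286). EdgeR called 0 of 9 members, against 0.0623% of all genes, and limma-voom called 0. DESeq2 called 1 of 9, Igfbp3, against 2.31% of all genes. At an unadjusted p under 0.05 there was 1 of 9, against 11.7% of all genes, and groups did not overlap for 2 of 9, Igfbp3 and Igfbp4, against 20.2%. Igfbp4 was higher in the labelled knockouts in every mouse, at 0.41 (SE 0.21, edgeR adjusted p = 0.473), and 0.24 without the second labelled knockout. Igf1 and Igfals gave -0.12 (SE 0.21) and -0.27 (SE 0.24), and both overlapped between genotypes. Leaving out single livers moved Igf1 between -0.30 and 0.0082 and Igfals between -0.49 and 0.021, so neither kept its sign. The fibroblast and smooth muscle markers summed to 107 to 184 CPM in wild-type livers and to 50.9 to 77.2 CPM in the labelled knockouts, and 9 of 10 had negative fold changes with none called. Negative too were 7 of 7 monocyte and neutrophil (median log2 -2.30) and 8 of 9 lymphocyte markers (-0.72). The same held for 7 of 9 endothelial, 7 of 9 Kupffer cell and 6 of 8 stellate cell markers. Positive were 9 of 9 hepatocyte (0.22) and 4 of 6 cholangiocyte markers. Of the sex-biased genes, 9 of 11 female-biased were negative (-1.61) and 6 of 7 male-biased positive (1.16). None of these was called, and the part of all these lists in the Igfbp3 difference was not tested.

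Under DSS, Igf1, Igfals and Igfbp7 were higher and Igfbp1 lower in every liver labelled RelaΔhepStat3Δhep than in every wild-type liver. These were the 4 of 9 members without overlap, against 16.8% of all genes, and they were also the 4 of 9 at an unadjusted p under 0.05, against 14.3%. EdgeR called 0 of 9, against 0.334% of all genes, limma-voom called 0, and DESeq2 called 2 of 9, Igfals and Igfbp1, against 3.91%. Igfals gave 0.87 (SE 0.24, 95% interval 0.35 to 1.39, edgeR adjusted p = 0.144), and 0.87 with an adjusted p of 0.0222 by DESeq2. Igfbp1 gave -1.75 (SE 0.48, 95% interval -2.81 to -0.68, edgeR adjusted p = 0.157), and -1.75 with an adjusted p of 0.0346 by DESeq2. Without the second DSS-treated wild-type liver Igfbp1 was at -1.20 (edgeR adjusted p = 0.295). With the replicate block edgeR called Igfbp1 here too, as given below. Igf1 gave 0.46 (SE 0.21, edgeR adjusted p = 0.347) and Igfbp7 0.49 (SE 0.18, edgeR adjusted p = 0.257), which was 0.30 without the third DSS-treated wild-type liver. All 9 tested endothelial markers had positive fold changes, none called, with sums of 483 to 614 CPM against 285 to 637 CPM. So had 9 of 9 Kupffer cell, 7 of 8 stellate cell and 9 of 9 lymphocyte markers, with medians of 0.41, 0.42 and 1.33 and none called. Positive were also 8 of 10 fibroblast and smooth muscle markers, but only 2 of 6 cholangiocyte and 3 of 7 monocyte and neutrophil markers, none called. The part of these lists in the Igfbp7 values was not tested. The sex-linked transcripts separate these groups completely, as given above.

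Whether the response to DSS differed by genotype was tested as an interaction. EdgeR called 0 of 9 members, against 0.408% of all genes, limma-voom called 0, and 4 of 9 had an unadjusted p under 0.05, against 16.3%. DESeq2 called 2 of 9, Igfals and Igfbp3, against 4.5% of all genes. The interaction for Igfbp3 was 1.20 (SE 0.34, 95% interval 0.45 to 1.94, edgeR adjusted p = 0.142, DESeq2 adjusted p = 0.0388), and that for Igfals was 1.14 (SE 0.34, 95% interval 0.40 to 1.87, edgeR adjusted p = 0.152, DESeq2 adjusted p = 0.0441). Igfbp3 had group means of 29.6 CPM in wild-type and 14.5 CPM in labelled knockout livers untreated, at -1.02. After DSS these means were 15.3 and 17.2 CPM, at 0.17 (SE 0.24, edgeR adjusted p = 0.804), with overlap. The Igfbp3 interaction thus holds a genotype difference seen without DSS and not after it. The 10 fibroblast and smooth muscle markers all had positive interaction values, with a median log2 of 1.20, against -0.02 over all genes, and none was called. Most other non-parenchymal lists moved the same way: 9 of 9 Kupffer cell markers were positive (median 0.56), 8 of 9 endothelial (0.55) and 6 of 8 stellate cell (0.66). So were 9 of 9 lymphocyte (2.01) and 6 of 7 monocyte and neutrophil markers (0.95). The cholangiocyte list went the other way, with 5 of 6 markers negative (median -0.57). None of these markers was called. The part of these lists in the Igfbp3 value was not tested. For Igf1 the interaction was 0.58 (SE 0.30, edgeR adjusted p = 0.353). For Igfbp1 it was -0.87 (SE 0.67, 95% interval -2.34 to 0.60, edgeR adjusted p = 0.541), so a larger Igfbp1 response in wild-type livers was not established. Without the second untreated labelled knockout, which had the highest Igfbp1 of its group, it was -0.24. All 11 female-biased genes were positive and all 7 male-biased genes negative in the interaction, with medians of 5.09 and -3.46, and 4 Y-linked genes were called lower. This comparison shares its libraries with the comparisons above, and the untreated group means enter it on both sides.

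**Figure D3:**
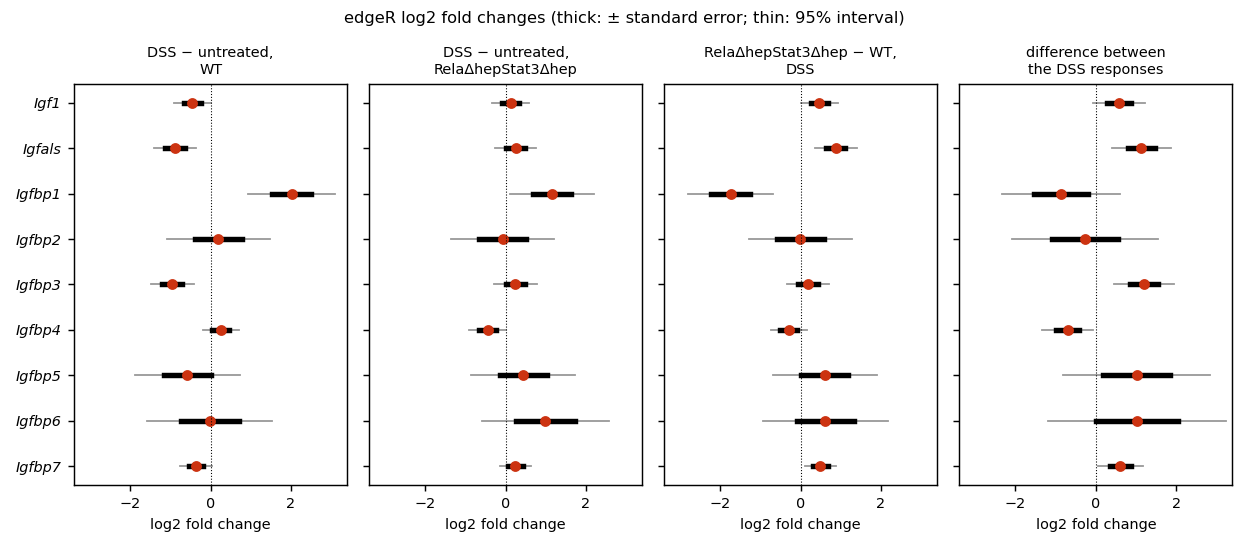
EdgeR log2 fold changes of the 9 members in 4 comparisons, with ± SE as thick bars and 95% intervals as thin bars. Igfbp1 is at 2.02 in wild-type and 1.15 in labelled knockout livers, and Igfals and Igfbp3 lie below 0 in wild-type livers and above 0 in the interaction.

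The makeup of the binding protein transcripts differed accordingly. On the scale of CPM per kb, Igfbp1 made up 6.62%, 12% and 9.28% of the sum of the 7 binding protein genes in untreated wild-type livers. After DSS it made up 21.0%, 41.5% and 15.1%. In the livers labelled RelaΔhepStat3Δhep the shares were 3.28%, 6.2% and 2.77% untreated and 11.2%, 12.6% and 8.53% after DSS. The shares did not overlap between untreated and DSS-treated livers of either genotype. The ratio of Igfbp1 to Igf1, both per kb, was 0.630, 0.706 and 0.485 in untreated and 3.34, 5.35 and 1.46 in DSS-treated wild-type livers. It was 0.210, 0.577 and 0.274 untreated and 0.577, 1.08 and 0.579 after DSS in the labelled knockouts, where the groups met at 0.577. Igfbp4 remained the largest share in the group means, at 55.4% and 47.6% in wild-type livers and 62.0% and 51.6% in the labelled knockouts. In the first DSS-treated wild-type liver, however, Igfbp2 was above it, at 489 CPM per kb against 456 for Igfbp4. With 3 mice against 3 an exact permutation test cannot go below p = 0.1, and none is given for these ratios.

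**Figure D4:**
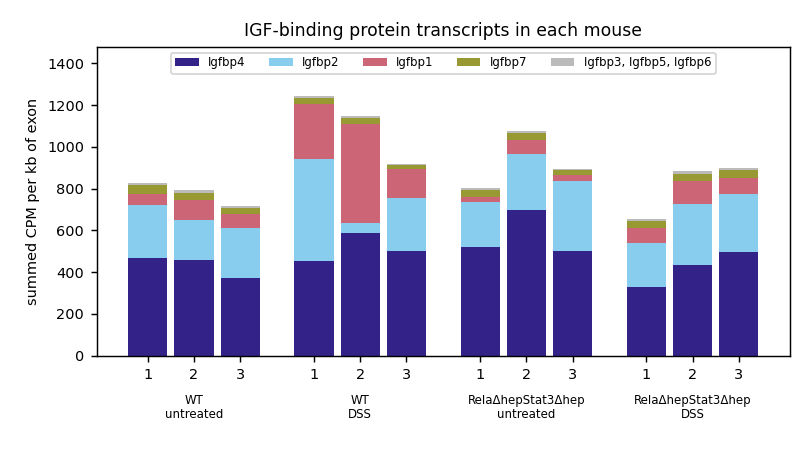
Summed CPM per kb of the 7 binding protein genes in each mouse (linear axis from 0), stacked by gene. The Igfbp1 segment is tallest in the second DSS-treated wild-type liver, at 41.5% of its sum, where the Igfbp2 segment is smallest.

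Across the 12 libraries, Igf1 and Igfals varied together. The Pearson r of log2(CPM + 0.5) was 0.826 (permutation p = 0.00053, adjusted over the 36 pairs of members 0.0191), and Spearman's rho was 0.881 (permutation p = 0.0003, adjusted 0.0108). Without the 2 libraries farthest from the median of Igf1, r was 0.787. After subtraction of the group means r was 0.661, and it was 0.888 over the 6 wild-type and 0.505 over the 6 labelled knockout libraries. Igfbp5 and Igfbp6, the lowest members, had the next strongest relation, at r = 0.772 (permutation p = 0.00321, adjusted 0.0578) and rho = 0.797 (permutation p = 0.00278, adjusted 0.050). For this pair r was 0.795 without the 2 farthest libraries and 0.797 after subtraction of the group means, so it did not rest on the groups. The permutations shuffled all 12 libraries without regard to group, so differences between groups enter these p-values. No p was computed for r after subtraction of the group means. The points share libraries and their depth, and no other pair was tested apart from these 36.

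**Figure D5:**
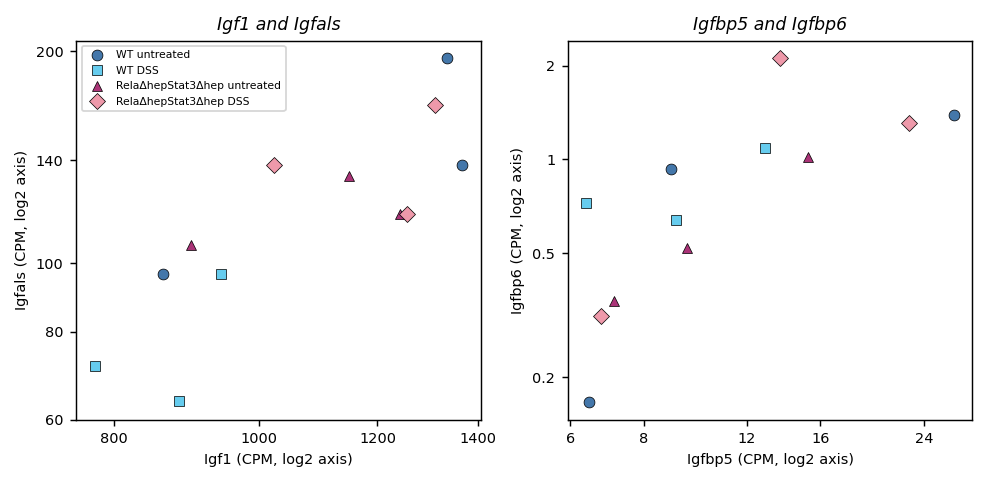
CPM of Igfals against Igf1 and of Igfbp6 against Igfbp5 (log2 axes) in the 12 libraries, with groups by symbol. DSS-treated wild-type livers lie at the lower left for Igf1 and Igfals (r = 0.826), and no group stands apart for Igfbp5 and Igfbp6 (r = 0.772).

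Other tested genes followed single members more closely over the 12 libraries, by Pearson r of log2 CPM. These values are descriptions, since the highest of 17652 genes is bound to be high. Nearest to Igf1 were Gm13722 (0.904), Add3 (0.895) and Gm11837 (0.873). Nearest to Igfals were Enah (0.889), Lifr (0.880) and Gm11458 (0.859). Lifr encodes the receptor of leukemia inhibitory factor. Nearest to Igfbp1 were Fam129b (0.906), Atp5s (0.897) and Slc10a7 (0.892), and nearest to Igfbp3 were Gm16124 (0.900), Cplx2 (0.882) and Rraga (0.867). Igfbp2 lay nearest to Immt (0.944), Gldc (0.933) and Dll1 (0.911), of which Gldc encodes a subunit of the glycine cleavage system. Igfbp4 lay nearest to D17Wsu92e (0.959), Tpst1 (0.943) and Fah (0.930), and Fah encodes the last enzyme of tyrosine breakdown. Igfbp5 lay nearest to Cuedc1 (0.918), 2010001K21Rik (0.902) and the matrix gene Fbln1 (0.879). Igfbp6 lay nearest to Nbl1 (0.921), Spock2 (0.887) and Trappc5 (0.884), and Igfbp7 to Napepld (0.936), Trim71 (0.917) and Sept8 (0.909).

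Upstream of Igf1, the growth hormone receptor transcript Ghr was lower after DSS in both genotypes, and it was called in the labelled knockouts. Ghr was at 779, 804 and 714 CPM in untreated wild-type livers and at 449, 390 and 577 CPM after DSS, at -0.70 (SE 0.18, edgeR adjusted p = 0.0896). In the livers labelled RelaΔhepStat3Δhep it fell from 925, 867 and 739 CPM to 439, 372 and 410 CPM, at -1.05 (SE 0.18, edgeR adjusted p = 0.00633). The DSS-treated livers did not overlap the untreated ones in either genotype, while Igf1 in the labelled knockouts overlapped, as given above. Of the 12 tested genes of growth hormone receptor signalling, edgeR called 1 higher in wild-type livers, against 0.685% of all genes called in either direction, and 2 higher and 1 lower in the labelled knockouts, against 7.02%. Socs1, an inhibitor of cytokine receptors, rose in both, at 2.89 (edgeR adjusted p = 0.0222) and 2.71 (adjusted p = 0.00810), and the phosphatase gene Ptpn6 rose in the labelled knockouts at 0.93 (adjusted p = 0.00867). None of the 12 was called between genotypes or in the interaction. Socs2, which growth hormone induces and which limits its receptor, was at 7.91, 63.1 and 51.3 CPM in untreated and 29.5, 23.8 and 18.8 CPM in DSS-treated wild-type livers. The wild-type log2 fold change of Socs2 was -0.76 (SE 0.59, edgeR adjusted p = 0.611). In the labelled knockouts Socs2 was at 43.3, 22.4 and 21.7 CPM untreated and at 75.8, 69.4 and 59.0 CPM after DSS, at 1.22 (SE 0.59, edgeR adjusted p = 0.243). As given above, DSS and the sex-linked transcripts cannot be told apart in the labelled knockouts. That limit holds there for Ghr, Socs1, Ptpn6 and Socs2.

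Transcripts of the receptors and their adaptors lie downstream. The second growth factor gene Igf2 was at most 0.184 CPM in any library and was not tested, and the receptor gene Igf1r was at 6.74 to 10.8 CPM. Of 12 tested genes for receptors and adaptors of this growth factor and of insulin, 1 was called in the 5 comparisons, Pik3r1, a regulatory subunit of phosphoinositide 3-kinase. It fell in the labelled knockouts after DSS, where 7.02% of all genes were called, at -0.71 (SE 0.19, edgeR adjusted p = 0.0375). In that comparison 10 of the 12 had negative fold changes, with a median log2 of -0.27, against -0.01 over all genes. In the interaction 11 of the 12 were negative, with a median of -0.28, against -0.02 over all genes, and the lowest p was that of the insulin receptor gene Insr, at -0.85 (SE 0.23, edgeR adjusted p = 0.113). In wild-type livers the adaptor Grb10 gave -1.03 (edgeR adjusted p = 0.0815) and Insr 0.53 (adjusted p = 0.144). Foxo1, an activator of Igfbp1, gave 0.77 between the untreated genotypes (edgeR adjusted p = 0.150).

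None of the 10 proteases and inhibitors that act on binding proteins was called in any of the 5 comparisons by edgeR, in which 0.0623% to 7.02% of all genes were called, so a count of 0 sets the list apart in none of them. Among them the gelatinase gene Mmp2 gave -1.02 with DSS in wild-type livers (edgeR adjusted p = 0.183) and -1.38 between the untreated genotypes (adjusted p = 0.155). Of 13 tested genes that respond to fasting in liver, as Igfbp1 and Igfbp2 do, 1 was called, Sesn1, higher in the labelled knockouts after DSS at 0.54 (SE 0.15, edgeR adjusted p = 0.0488). This count and that of Pik3r1 are near the 7.02% of all genes called there. In wild-type livers 9 of the 13 had positive and 4 negative DSS fold changes, with Asns at 1.47 (edgeR adjusted p = 0.371) and Pdk4 at -1.16 (adjusted p = 0.396). The cytokine-induced inhibitor Socs3 was at 5.56, 5.03 and 5.69 CPM in untreated and 8.47, 69.9 and 26.1 CPM in DSS-treated wild-type livers, at 2.68 (SE 0.59, edgeR adjusted p = 0.0749). In the labelled knockouts Socs3 was at 5.01 to 7.42 CPM untreated and at 8.43 to 12.2 CPM after DSS. Every DSS-treated liver was above every untreated one of its genotype in Socs3, as in Igfbp1. Among DSS-treated wild-type livers the second was highest in both, and the first had the lowest Socs3 and the second highest Igfbp1. Among DSS-treated labelled knockouts the liver with the lowest Socs3 had the highest Igfbp1. An order of 3 mice cannot show whether these transcripts are related, which was not tested.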

How the data were processed

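Whole-liver RNA was sequenced after rRNA depletion. The submitters' processing notes name fastp, HISAT2, StringTie and DESeq2 and the build mm9, and the deposited table holds estimated counts per Ensembl gene as the authors made them, in whole numbers. Rows were named from GENCODE vM1. The table also lists 22932 identifiers that vM1 does not hold, so exon lengths and coordinates may differ from the annotation that was counted. Counts were filtered (filterByExpr), scaled by TMM and fitted with 4 groups in 1 model by edgeR 4.0.16 (robust quasi-likelihood F test, R 4.3.3), and SEs are the fold change over the square root of F. DESeq2 1.42.0, limma-voom 3.58.1, other size factors and filters, fits of only the groups compared, a replicate block and leave-one-out fits were alternatives. Shares of genes called by DESeq2 are of the genes it gave an adjusted p. The fits were tested on simulated data. Nothing in the labels says more of the replicates than biological, so p-values measure the spread between these 12 mice. No pair of libraries was identical. All 9 members and the 3 genes most correlated with each were named. Of the pathway lists, names were taken from up to 4 called genes or, with none, the 2 with the smallest p in a comparison, and not all of these are printed. Marker and sex-biased lists are given as counts and sums. Ghr, Socs2, Socs3, Igf2, Igf1r, Lcn2, S100a8, Xist and Ddx3y were given in comparisons outside this rule, chosen with values seen. The members and lists were chosen with earlier results of these data known. Intervals cover the model error between mice only.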

Additional observations from a re-analysis of the deposited data

Results flagged for a closer look

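The DSS responses of 2 of 9 members had opposite signs in the genotypes, mouse by mouse, as did those of 11.7% of all 17652 genes. For Igfbp4 every DSS-treated wild-type mouse was above its untreated group mean and every DSS-treated mouse labelled RelaΔhepStat3Δhep was below its own, and the difference between the responses was -0.70 on the log2 scale (edgeR adjusted p = 0.266), or -0.54 without the second untreated labelled knockout. For Igfbp7 the signs were the other way round, with a difference of 0.61 (edgeR adjusted p = 0.268). Neither difference passed the interaction test, and the sex-linked transcripts that mark the DSS-treated labelled knockouts enter both.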

How the results depend on the processing

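The fold changes of the members kept their direction in most settings, while the calls depended on the tool and the design. EdgeR with all 4 groups and no block called no member in any of the 5 comparisons. DESeq2 called 3 with DSS in wild-type livers, 0 in the labelled knockouts, 1 between untreated genotypes, 2 between DSS-treated genotypes and 2 in the interaction, and over all genes 840, 2307, 334, 585 and 698, against 121, 1240, 11, 59 and 72 by edgeR. limma-voom called 210, 95 and 29 genes in the first comparison and between untreated and DSS-treated genotypes. Fits of only the groups compared called 21 genes in the first comparison and 60 between untreated genotypes, with 1 member, Igfbp3 (-1.02, adjusted p = 0.0400). The interaction has no such fit, since it needs all 4 groups. DESeq2 size factors, no filter on low counts and a minimum of 10 counts in every library changed no call of a member. The order of the 9 members by level was the same with DESeq2 size factors.

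Same-numbered mice did not deviate together (correlations from -0.0886 to 0.168), so the numbers do not pair the samples. With a replicate block edgeR called 1 member, Igfbp1, with DSS in wild-type livers (1.90, adjusted p = 0.0118), with DSS in the labelled knockouts (1.28, adjusted p = 0.0172) and between DSS-treated genotypes (-1.62, adjusted p = 0.0321), and the block gave 33 genes between untreated genotypes and 128 in the interaction. Under the block Igfbp6 turned to 0.26 with DSS in wild-type livers and Igfbp2 to 0.20 between DSS-treated genotypes.

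With limma-voom, Igfbp6 turned to 0.13 with DSS in wild-type livers, Igfbp2 to 0.021 with DSS in the labelled knockouts and to 0.090 between DSS-treated genotypes, and Igf1 to 0.048 between untreated genotypes. The cause was not tested.

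Leaving out each mouse in turn gave 0 to 1 called members with DSS in wild-type livers, where Igfbp1 was called without the third DSS-treated wild-type mouse (2.35, adjusted p = 0.0407) or the second untreated labelled knockout (2.01, adjusted p = 0.0495), and 0 in the other comparisons. Genes called over all ran from 35 to 209, 241 to 1736, 2 to 34, 11 to 392 and 21 to 220 in the 5 comparisons. The ranges that follow are those that changed sign. With DSS in wild-type livers the fold changes of Igfbp2 ran from -0.63 to 0.69, of Igfbp5 from -0.93 to 0.30 and of Igfbp6 from -0.51 to 0.56. With DSS in the labelled knockouts, Igfbp2 ran from -0.22 to 0.093 and Igfbp5 from -0.052 to 0.79. Between untreated genotypes, Igf1 ran from -0.30 to 0.0082, Igfals from -0.49 to 0.021, Igfbp5 from -0.77 to 0.47, Igfbp6 from -0.94 to 0.19 and Igfbp7 from -0.23 to 0.016. Between DSS-treated genotypes, Igfbp2 ran from -0.51 to 0.81, Igfbp3 from -0.060 to 0.37 and Igfbp6 from -0.0032 to 1.07. In the interaction Igfbp2 ran from -0.78 to 0.55. The sex-linked transcripts cannot be told apart from DSS in the labelled knockouts under any of these settings.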
